A study of Mus musculus with 9 samples.

Results

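The genes described here are the mouse DNA repair genes whose symbol begins with Rad and a digit, Fanc, Brca, Xrcc, or Msh and a digit, followed through the prenatal growth of the olfactory bulb. A gene belonged to the set where a probe set that carried no other gene symbol reached log2 5 on 2 or more of the 9 arrays, and each gene was read from its probe set of highest mean. That gave 31 members among 38 annotated genes of these names and among 10864 genes tested in all. The rule used gene names and levels. The bulb is the forebrain structure that receives the axons of the nose, and its cells were measured as bulk total RNA on oligonucleotide arrays. The animals were CD1 mice with no treatment or engineered allele, dissected daily, starting on embryonic day 11 (E11) and ending with E18 and newborn mice (P0). Each age was 1 array from 1 animal, so no age had a replicate, and every error below comes from the scatter of the 9 animals around a fitted course over age.

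Cells repair broken, mismatched or cross-linked DNA along several routes that share parts. Homologous recombination copies the sister chromatid, which exists only after replication, and the Fanconi anaemia proteins hand cross-linked DNA to it. Non-homologous end joining re-ligates broken ends in cells that do not divide as well as in those that do, mismatch repair corrects copying errors behind the replication fork, and nucleotide excision repair removes bulky lesions. In the embryonic forebrain, dividing progenitors line the ventricle and give rise to neurons that leave the cell cycle, and mouse mutants of several of these routes lose newborn neurons.

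Of the 31 repair genes, 21 fell with age and 0 rose, and 10 passed the test in neither direction (slope of the log2 level on age in limma, Benjamini-Hochberg adjusted over all 10864 genes, threshold 0.05). Over all genes tested, 21.9% fell and 25.2% rose. The median slope of the members was -0.17 log2 units per day, against 0.0020 over all genes, and 30 members had a negative slope. The fitted falls of the 21 ran from 1.44-fold (Xrcc6) to 17.3-fold (Rad54l) over the whole course. A fitted fall of at least 2-fold was reached by 19 members, against 11.4% of all genes. On the readings as they stand, the steepest falls were those of Rad54l and Rad54b in homologous recombination and of Fanci in the Fanconi anaemia pathway. Rad54b and Fanci had readings under 5. With these set to 5, their slopes were -0.33 and -0.26, and that of Fanci was shallower than those of Fanca (-0.31), Brca2 (-0.28) and Fancb (-0.27). Fanci and Fancd2 reached 5 from E11 to E14 alone, so the filter favoured a falling call for both. In bulk tissue, fewer cells of a type and less RNA per cell cannot be told apart.

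**Figure D1:**
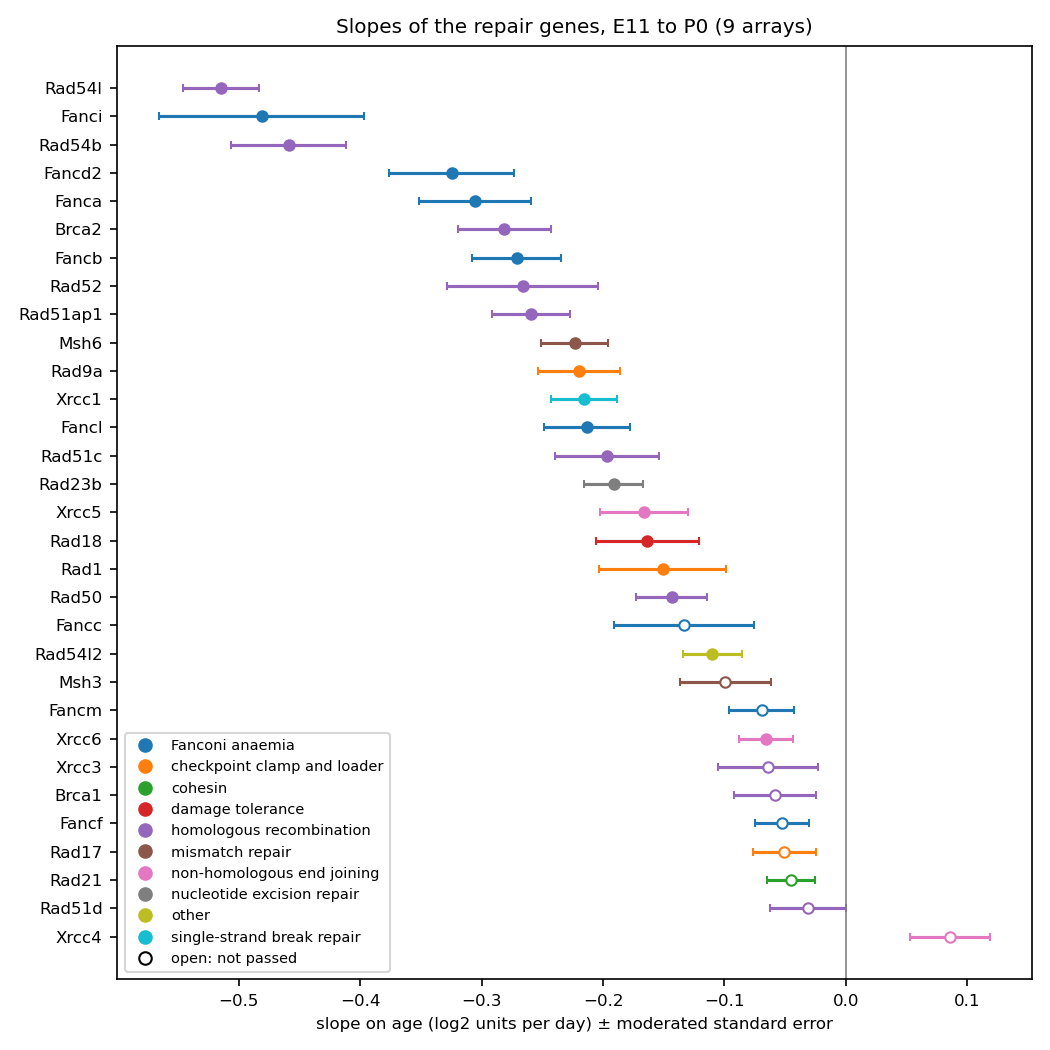
Slope of the log2 level on age for each of the 31 repair genes over 9 arrays, in log2 units per day, with its moderated standard error, colored by repair pathway. Filled points passed the test and open points did not. Slopes run between -0.51 (Rad54l) and 0.086 (Xrcc4), the single gene right of zero.

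The tissue itself changed over these days. Of 11 marker genes of cycling cells, 11 fell, and their median level was log2 9.18 at P0, against 12.13 at E11. Median levels of the 6 neuronal markers were 12.80 at P0 and 10.73 at E11, and those of the 6 progenitor markers 10.76 at P0 and 11.52 at E11. The 4 red cell markers had a median of 2.96 at P0 and 13.72 at E11, and 11.65 at E12. Of these, the globins Hbb-y, Hba-x and Hbb-bh1 fell. Alas2 did not pass (slope -0.10, adjusted p = 0.306 in limma) and read 6.94 at P0, 8.43 at E18 and 9.46 at E11. Meningeal markers (6 genes) stood at 9.99 at P0 and 5.43 at E11, and astrocyte markers (5 genes) at 11.61 at P0 and 7.89 at E11. Microglial (5 genes) and endothelial markers (4 genes) had medians of 6.96 and 6.73 at P0, against 4.77 and 6.03 at E11. Only 4 of the microglial and 2 of the endothelial genes reached 5 on some array. Of these 2, Cldn5 rose (slope 0.35) and Kdr did not pass (slope 0.040, adjusted p = 0.542 in limma). The part of these shifts in the courses of the repair genes was not tested. Array medians lay between 4.08 and 4.23 log2 units, and the 3' minus 5' difference of Actb between 1.48 and 1.90. That of Gapdh lay between 1.55, at E11, and 2.12. The RNA was amplified in 2 rounds, so these differences do not measure RNA degradation alone.

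Much of the change came early. At E12, 26 of 31 members read lower than at E11, which held for 54.8% of all genes, and the median step was -0.56 log2 units, against -0.053 over all genes. The highest of the 9 readings was that at E11 in 26 members, against 27.5% of all genes. The E11 array also had the highest median of the red cell markers. Between the end ages, 30 members read lower at P0 than at E11 (48.9% of all genes). Without the E11 array, 19 members fell (16.6% of all genes). Over E13 to P0 alone, 15 members fell, against 11.2% of all genes, with a median slope of -0.13 among members. Rad51c, Rad50, Xrcc5, Xrcc6, Rad1 and Rad18 were the 6 that no longer passed there. Curvature passed the test in 2 members, Fanci and Brca2, against 6.86% of all genes. Both curves bent upward, as did 1.33% of all genes, with the readings flattening toward birth. All readings of Fanci from E15 on were under 5, so its flattening cannot be told apart from the floor of the readings. Curvature passed in 0 members without E11 or E15 and in 1 without E13, E16, E17, E18 or P0.

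**Figure D2:**
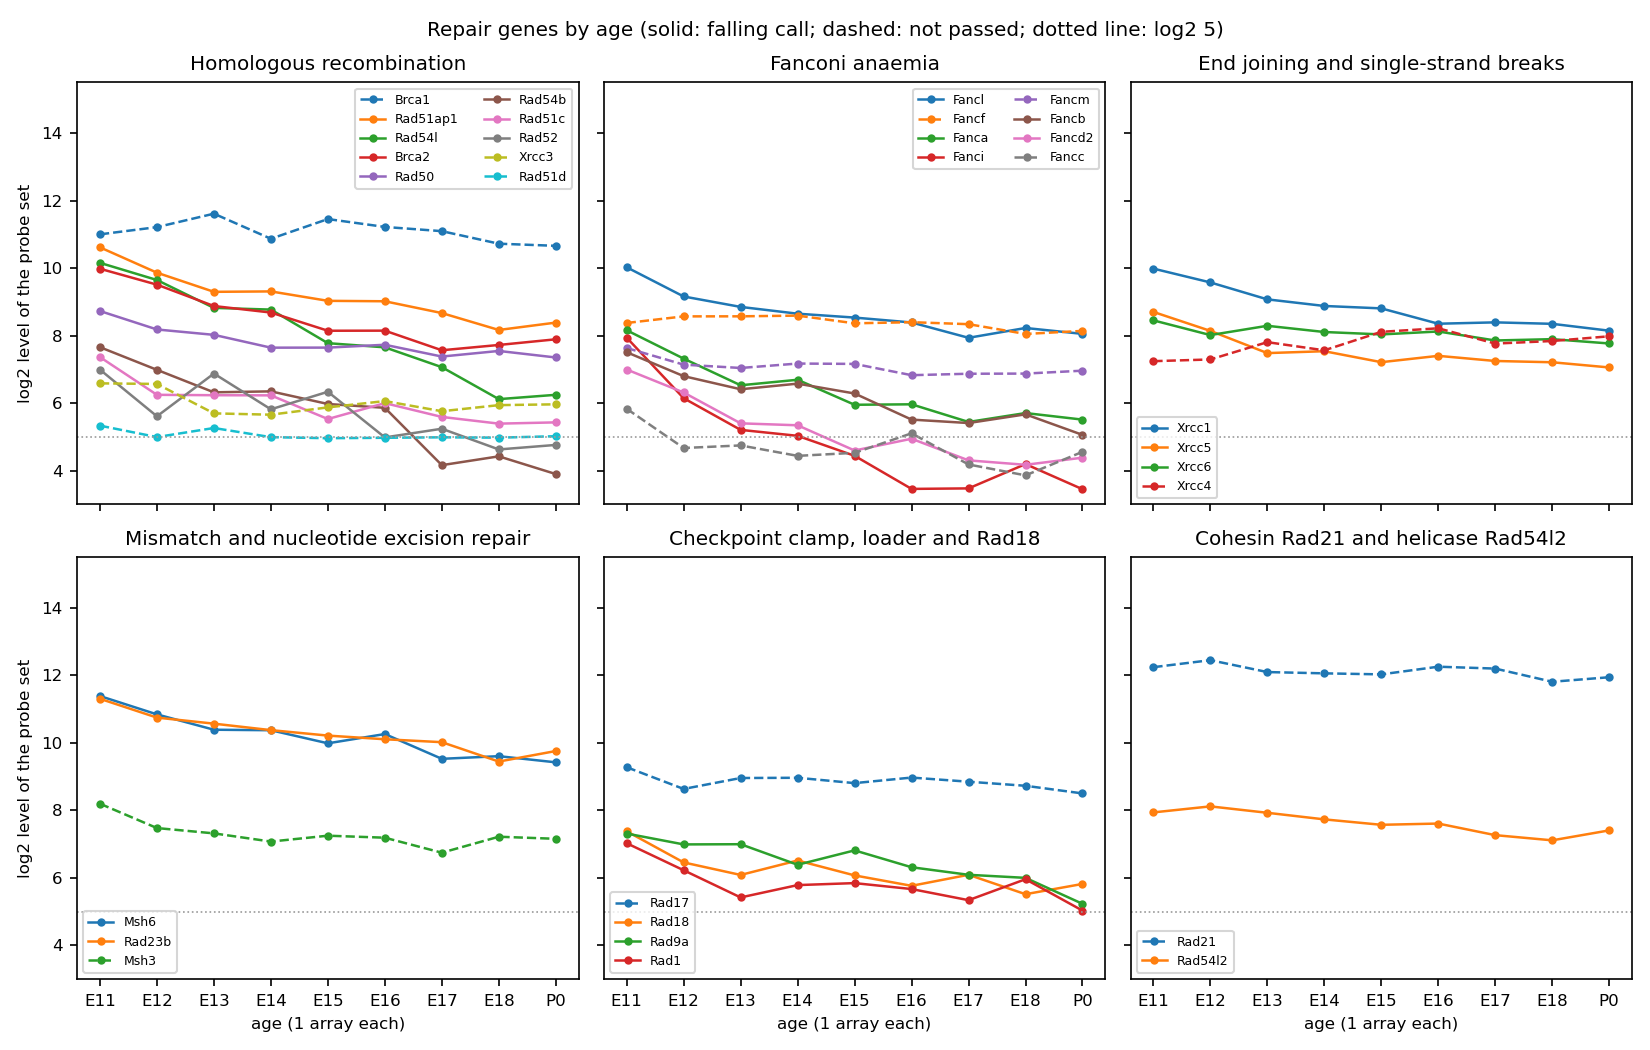
Log2 level of the probe set of each repair gene on each of the 9 arrays, E11 to P0, by repair route. Solid lines are genes that fell, dashed lines genes that did not pass the test, and the dotted line marks log2 5. Rad54l drops to 6.25 at P0 against 10.16 at E11, while Brca1 and Rad21 stay near the top of their panels.

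Promoters are shown for 6 members on which the comparisons turn. For the pathways with the lowest median slopes, this is the steepest fall with readings under 5 left as they are. The partner pairs Brca1 with Brca2 and Msh6 with Msh3 are shown too. Each is the 250 bases before to 50 after a start listed for the gene in RefSeq on build GRCm38.p6, 5′ to 3′ on the strand of the gene. For Brca2, Fanci and Rad54l that start lies inside the outer bounds of the gene, and distances below are from it. Capitals mark E2F-like matches (TTTCGCGC, TTTCCCGC, TTTGGCGC or TTTGCCGC) and CCAAT boxes on either strand. The CHR-like motif TTTGAA was searched too and is in none of them. Rad54l lies at chr4:116123641-116123940 on the minus strand, Fanci at chr7:79392088-79392387 on the plus strand and Brca2 at chr5:150522371-150522670 on the plus strand. Brca1 lies at chr11:101551906-101552205 on the minus strand, Msh6 at chr17:87974800-87975099 on the plus strand and Msh3 at chr13:92354954-92355253 on the minus strand.
Rad54l: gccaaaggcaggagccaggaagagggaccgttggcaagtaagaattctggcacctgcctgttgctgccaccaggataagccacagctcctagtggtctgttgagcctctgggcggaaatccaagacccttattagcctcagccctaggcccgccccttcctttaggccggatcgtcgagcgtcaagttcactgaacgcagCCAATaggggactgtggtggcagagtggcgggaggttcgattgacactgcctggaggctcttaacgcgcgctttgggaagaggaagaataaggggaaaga
Fanci: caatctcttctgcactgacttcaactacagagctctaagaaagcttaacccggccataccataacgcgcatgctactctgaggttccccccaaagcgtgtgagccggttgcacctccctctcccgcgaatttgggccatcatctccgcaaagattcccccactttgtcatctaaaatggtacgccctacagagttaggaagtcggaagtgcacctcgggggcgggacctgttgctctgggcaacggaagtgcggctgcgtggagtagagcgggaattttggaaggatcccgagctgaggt
Brca2: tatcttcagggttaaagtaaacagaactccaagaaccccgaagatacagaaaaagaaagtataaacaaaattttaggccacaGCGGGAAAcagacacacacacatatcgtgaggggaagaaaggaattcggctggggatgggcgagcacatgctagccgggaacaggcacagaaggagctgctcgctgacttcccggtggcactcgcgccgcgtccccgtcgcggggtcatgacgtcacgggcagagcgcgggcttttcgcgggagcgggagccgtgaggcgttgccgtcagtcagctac
Brca1: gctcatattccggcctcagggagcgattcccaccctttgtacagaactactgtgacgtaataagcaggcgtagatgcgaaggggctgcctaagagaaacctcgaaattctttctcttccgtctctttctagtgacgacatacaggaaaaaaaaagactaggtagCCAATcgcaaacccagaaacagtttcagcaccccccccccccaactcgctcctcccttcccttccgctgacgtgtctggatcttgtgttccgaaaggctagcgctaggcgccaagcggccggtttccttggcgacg
Msh6: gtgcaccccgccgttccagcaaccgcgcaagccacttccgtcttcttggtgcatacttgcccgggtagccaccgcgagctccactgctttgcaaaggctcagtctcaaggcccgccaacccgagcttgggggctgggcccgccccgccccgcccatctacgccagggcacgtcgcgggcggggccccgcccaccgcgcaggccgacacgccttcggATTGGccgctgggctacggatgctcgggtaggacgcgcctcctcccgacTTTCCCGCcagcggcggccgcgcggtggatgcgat
Msh3: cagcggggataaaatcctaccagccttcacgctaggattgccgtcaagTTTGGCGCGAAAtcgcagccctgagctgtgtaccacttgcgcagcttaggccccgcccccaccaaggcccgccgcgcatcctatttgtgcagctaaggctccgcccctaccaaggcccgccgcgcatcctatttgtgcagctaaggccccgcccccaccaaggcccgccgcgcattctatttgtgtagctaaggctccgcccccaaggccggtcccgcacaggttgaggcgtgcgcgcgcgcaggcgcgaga

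Among these windows, those of Brca2 and Msh6 hold 1 E2F-like match each, and that of Msh3 holds 2, which overlap. Rad54l and Brca1 hold a CCAAT box 50 and 86 bases before that start, and Msh6 one on the opposite strand 34 bases before it. The window of Fanci holds none of the motifs. A promoter was found for 24 of the 31 members. An E2F-like match stood in 4 of 16 falling members and 1 of 8 that did not pass, against 4.82% of 8833 tested genes with a promoter. CCAAT stood in 9 of 16 falling members and 5 of 8 others, against 43.3% of those genes, and TTTGAA in 0 of 24 members, against 14.0%. A match describes these letters only.

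Homologous recombination counted 10 members, of which 7 fell and 3 did not pass, with a median slope of -0.23. Of all genes tested, 21.9% fell. All levels below are log2 values in order of age, E11 to P0. Rad54l, a DNA translocase that assists strand exchange, read 10.16, 9.65, 8.82, 8.77, 7.78, 7.65, 7.07, 6.12 and 6.25. Its readings fell nearly step by step, and the slope of -0.51 ± 0.031 log2 units per day (SE, adjusted p = 4.99e-06) was the 30th steepest fall of 10864 genes. On the linear scale it was 15.0-fold lower at P0 than at E11. The other 2 probe sets of Rad54l had slopes of -0.47 and -0.46. Its paralog Rad54b read 7.66, 6.99, 6.32, 6.35, 5.97, 5.86, 4.16, 4.42 and 3.90, below log2 5 from E17 on. The slope of Rad54b was -0.46 ± 0.047 (adjusted p = 5.63e-05) and its level at least 6.31-fold lower at P0, the lower reading being set to 5.

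Brca2, a mediator of strand exchange at resected ends, read 9.98, 9.51, 8.88, 8.68, 8.15, 8.15, 7.57, 7.72 and 7.89. It lost more than 2 log2 units by E17 and ended level, with a slope of -0.28 ± 0.038 (adjusted p = 0.000288), a curvature of 0.044 ± 0.010 per day squared (adjusted p = 0.0348) and a level 4.26-fold lower at P0 than at E11. Rad52, an annealing protein, had a slope of -0.27 ± 0.062 (adjusted p = 0.00556) on uneven readings between 4.63 and 6.99, and its other probe set sloped at -0.053. Rad51ap1, which stimulates strand exchange, fell by 0.26 ± 0.032 per day (adjusted p = 0.000168), 4.69-fold between the end ages. A dimmer probe set of Rad51ap1 sloped at -0.34. The recombination mediator Rad51c, with -0.20 ± 0.043, and Rad50, the tethering subunit of the Mre11 complex that senses broken ends, with -0.14 ± 0.029, fell less steeply (adjusted p = 0.00391 and 0.00262). Their levels were 3.82-fold and 2.60-fold lower at P0.

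The remaining 3 recombination genes did not pass. Brca1, the ubiquitin ligase subunit that promotes end resection, read 11.0, 11.21, 11.61, 10.87, 11.45, 11.22, 11.10, 10.72 and 10.66. It stood highest at E13, as did its other 2 probe sets, and its slope was -0.059 ± 0.034 (adjusted p = 0.180). Xrcc3, which acts in a complex with Rad51c, read 6.59, 6.57, 5.70, 5.66, 5.87, 6.06, 5.76, 5.94 and 5.96. High readings were confined to E11 and E12, and its slope was -0.064 ± 0.041 (adjusted p = 0.228). Over E13 to P0 the sign turned, at 0.045 (adjusted p = 0.434). A dimmer probe set of Xrcc3 read 6.99 at E11 and 5.72 at P0 and sloped at -0.13 ± 0.062. Rad51d, another recombination mediator, read 5.33, 4.99, 5.26, 4.99, 4.96, 4.97, 4.99, 4.98 and 5.02, all close to the filter level, with a slope of -0.031 ± 0.031 (adjusted p = 0.433).

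The Fanconi anaemia genes numbered 8, of which 5 fell and 3 did not pass (median slope -0.24), where 21.9% of all genes fell. Fanci and Fancd2 encode the paired subunits of the clamp that is ubiquitinated at stalled forks. Fanci read 7.94, 6.15, 5.21, 5.03, 4.44, 3.46, 3.47, 4.19 and 3.45. Most of its fall lay before E14, with a slope of -0.48 ± 0.085 (adjusted p = 0.00124), an upward curvature of 0.096 ± 0.023 (adjusted p = 0.0346) and a level at least 7.68-fold lower at P0. With readings under 5 set to 5, the slope of Fanci was -0.26. Its readings from E15 on were all under 5, so the flattening cannot be told apart from the floor of the readings. Fancd2 read 7.0, 6.32, 5.40, 5.34, 4.60, 4.95, 4.30, 4.17 and 4.38. Only 4 of these readings reached 5, all of them from E11 to E14. The slope was -0.32 ± 0.051 (adjusted p = 0.000668), at least 3.99-fold between the end ages. The other probe set of Fancd2 sloped at -0.25. Fanci likewise reached 5 from E11 to E14 alone, so the filter favoured a falling call for both genes.

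The remaining members belong to the core complex that ubiquitinates this clamp, or to its anchor. Fanca read 8.16, 7.32, 6.53, 6.69, 5.95, 5.97, 5.44, 5.71 and 5.51, above 5 throughout, with a slope of -0.31 ± 0.046 (adjusted p = 0.000511) and a level 6.27-fold lower at P0 than at E11. Fancb, which lies on the X chromosome, fell by 0.27 ± 0.037 per day (adjusted p = 0.000277), 5.46-fold between the end ages. Since ages differed in the sex of the animal, the fit was repeated with sex as a term, where the slope of Fancb was -0.26 (adjusted p = 0.000808). Fancl, the ubiquitin ligase subunit, had a slope of -0.21 ± 0.035 (adjusted p = 0.000861) and was 3.93-fold lower at P0. Fancc, Fancm and Fancf did not pass. Fancc read 5.83, 4.67, 4.75, 4.44, 4.53, 5.11, 4.18, 3.86 and 4.56, with a slope of -0.13 ± 0.057 (adjusted p = 0.0798), and it reached 5 only at E11 and E16. Quantile normalization gave an adjusted p of 0.0465 for Fancc and median centring 0.0497. The translocase Fancm, which anchors the complex on DNA, read 7.63, 7.14, 7.04, 7.17, 7.16, 6.83, 6.87, 6.88 and 6.96. Apart from E11 its readings lay within a narrow band, with a slope of -0.069 ± 0.027 (adjusted p = 0.0542). It passed under 4 alternative settings, with adjusted p between 0.0243 and 0.0460. Fancf, an adaptor of the complex, read 8.38, 8.57, 8.57, 8.59, 8.36, 8.40, 8.34, 8.05 and 8.14, with a slope of -0.053 ± 0.022 (adjusted p = 0.0725; 0.0277 without E11). A dimmer probe set of Fancf read 5.05 at P0 against 7.39 at E11 and sloped at -0.23 (adjusted p = 0.00103 when it stood for the gene), so the probe sets of Fancf disagree on the call.

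Of the 3 end joining members 2 fell and 1 did not pass, with a median slope of -0.066, where 21.9% of all genes fell. Xrcc5 (Ku80), a subunit of the Ku ring that binds broken ends, read 8.70, 8.14, 7.48, 7.54, 7.21, 7.40, 7.25, 7.21 and 7.06. It was high at E11 and E12 and nearly level after E13, with a slope of -0.17 ± 0.036 (adjusted p = 0.00411) and a level 3.13-fold lower at P0 than at E11. Over E13 to P0 its adjusted p was 0.151. Xrcc6 (Ku70), the partner in that ring, read 8.45, 8.02, 8.29, 8.11, 8.04, 8.12, 7.86, 7.90 and 7.77. Its slope of -0.066 ± 0.022 passed narrowly (adjusted p = 0.0312) and was 1.61-fold between the end ages. Without E11, E13, E17, E18 or P0 the adjusted p of Xrcc6 was 0.134, 0.0587, 0.0591, 0.0578 and 0.0928.

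Xrcc4, the scaffold of the ligase of this route, read 7.24, 7.29, 7.81, 7.57, 8.11, 8.22, 7.76, 7.84 and 7.98. E11 and E12 were its lowest readings, so that it ran opposite to the rest, with a slope of 0.086 ± 0.033 that did not pass (adjusted p = 0.0535). A second probe set sloped at 0.073. Xrcc4 passed as rising under 4 alternative settings, with adjusted p between 0.0293 and 0.0475. Among them were those without E13 (0.0475), without E15 (0.0468) and after quantile normalization (0.0421). Xrcc1, the scaffold of single-strand break repair, behaved otherwise and read 9.99, 9.58, 9.07, 8.88, 8.81, 8.35, 8.39, 8.35 and 8.15. Its slope was -0.22 ± 0.027 (adjusted p = 0.000177), 3.58-fold lower at P0 than at E11.

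In mismatch repair, Msh6 serves the recognition of small mismatches and Msh3 that of larger loops. Msh6 read 11.39, 10.84, 10.39, 10.37, 9.99, 10.26, 9.53, 9.60 and 9.42. It fell by 0.22 ± 0.028 per day (adjusted p = 0.000174) and was 3.90-fold lower at P0 than at E11. Msh3 read 8.20, 7.47, 7.32, 7.07, 7.25, 7.19, 6.74, 7.22 and 7.16, where E11 stood apart and the later readings showed little order. The slope of Msh3 was -0.099 ± 0.038 and just missed the threshold (adjusted p = 0.0504). Under 7 of the alternative settings it passed, with adjusted p between 0.0153 and 0.0498, among them those without E14 (0.0436) and without P0 (0.0418).

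Rad23b, which stabilizes the lesion sensor Xpc in nucleotide excision repair and shuttles proteins to the proteasome, read 11.30, 10.75, 10.57, 10.38, 10.21, 10.11, 10.02, 9.45 and 9.76. The fall was steady, with a slope of -0.19 ± 0.024 (adjusted p = 0.000196) and a level 2.92-fold lower at P0. Its dimmer probe sets sloped at -0.15, -0.072 and 0.00030. Without probe sets that may match several transcripts, the gene was read at -0.072 and did not pass (adjusted p = 0.0816).

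The checkpoint proteins Rad9a and Rad1 form the clamp that marks damaged DNA, and Rad17 loads it. Rad9a read 7.31, 6.99, 7.0, 6.39, 6.81, 6.31, 6.09, 6.0 and 5.23, with its lowest reading at P0, a slope of -0.22 ± 0.034 (adjusted p = 0.000569) and a level 4.23-fold lower there than at E11. Rad1 read 7.03, 6.22, 5.42, 5.78, 5.84, 5.67, 5.34, 5.96 and 5.03. Its slope was -0.15 ± 0.052 (adjusted p = 0.0354) and its level 3.99-fold lower at P0. Without E11, E12, E16, E17 or P0 the adjusted p of Rad1 was 0.221, 0.0676, 0.0504, 0.0664 and 0.126, and over E13 to P0 it was 0.605. Rad17 read 9.28, 8.63, 8.96, 8.96, 8.81, 8.97, 8.85, 8.73 and 8.50. Its slope of -0.051 ± 0.026 did not pass (adjusted p = 0.134), although it did without E12 (adjusted p = 0.0217).

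Rad18, the ligase that ubiquitinates the replication clamp at stalled forks, read 7.38, 6.46, 6.09, 6.51, 6.07, 5.76, 6.09, 5.52 and 5.82. Its slope was -0.16 ± 0.043 (adjusted p = 0.00999; 0.0637 without E11), 2.95-fold lower at P0 than at E11, and its other probe sets sloped at -0.30 and -0.25. Rad21, the cleavable subunit of the cohesin ring that holds sister chromatids together, was the brightest member and read 12.24, 12.45, 12.10, 12.06, 12.03, 12.26, 12.20, 11.81 and 11.94. Its readings spanned less than 1 log2 unit, and the slope was -0.045 ± 0.020 (adjusted p = 0.0878; 0.0229 with arrays centred on their medians). Its dimmer probe sets sloped at -0.082 and 8.36e-05. Rad54l2, a helicase named for its likeness to Rad54l and known as a partner of the androgen receptor, read 7.94, 8.12, 7.93, 7.73, 7.57, 7.61, 7.26, 7.11 and 7.41. It fell by 0.11 ± 0.025 per day (adjusted p = 0.00455), 1.45-fold between the end ages.

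Another 7 genes of these names did not reach the filter. Closest to it were Rad51b, with a highest reading of 4.41 at E11, and Fance, with 4.30 at P0. Just inside it were Rad51d, with a highest reading of 5.33, and Fancc, with 5.83. Fancg and Fancd2os read at most 3.32 and 3.30, and Rad9b at most 2.65. The meiotic MutS homologues Msh4 and Msh5 read at most 2.39 each. Of the 31 members, 25 stood at 5 or more on all 9 arrays, and 17 of these fell (median slope -0.16). Of all genes past the filter 21.9% fell. The share among all genes at 5 or more on all 9 arrays is not given here.

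Partners that work in 1 complex or as paralogs were set against each other within each array, which removes what an array shares. The slope of the difference was tested in 6 pairs by an exact permutation test over all orders of the 9 arrays, two-sided and adjusted over the pairs, and 1 passed. Msh6 minus Msh3 was 3.19, 3.37, 3.07, 3.30, 2.74, 3.07, 2.78, 2.39 and 2.27 log2 units from E11 to P0. It narrowed by -0.12 ± 0.027 per day (exact p = 0.00294, adjusted 0.0176), so Msh6 fell more steeply than Msh3. The adjusted exact p was 0.0615 without E12 and 0.0548 over E13 to P0. Brca1 minus Brca2 was 1.02, 1.70, 2.74, 2.19, 3.31, 3.07, 3.53, 3.0 and 2.77, with a slope of 0.22 ± 0.074 (exact p = 0.0187). After adjustment it missed the threshold, at 0.0561, but passed without E13 (0.0344) and without P0 (0.0458).

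Xrcc6 minus Xrcc5 was -0.25, -0.12, 0.81, 0.57, 0.82, 0.72, 0.61, 0.68 and 0.71. The step lay between E12 and E13, and the slope of 0.10 ± 0.041 did not pass (exact p = 0.0441, adjusted 0.0881), except without E13 (adjusted 0.0344). Over E13 to P0 it was -0.0100 (adjusted exact p = 0.724). Fancd2 minus Fanci had a slope of 0.16 ± 0.074 (adjusted exact p = 0.103), Rad1 minus Rad9a 0.069 ± 0.058 (adjusted exact p = 0.335) and Rad54l minus Rad54b -0.056 ± 0.055 (adjusted exact p = 0.337). With readings under 5 set to 5, the slope of Rad54l minus Rad54b was -0.19 and passed (adjusted exact p = 0.00881). That setting raised only readings of Rad54b, from E17 on, and moved its slope to -0.33 from -0.46. The setting itself thus widens the difference, and no conclusion about the pair is drawn from it.

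**Figure D3:**
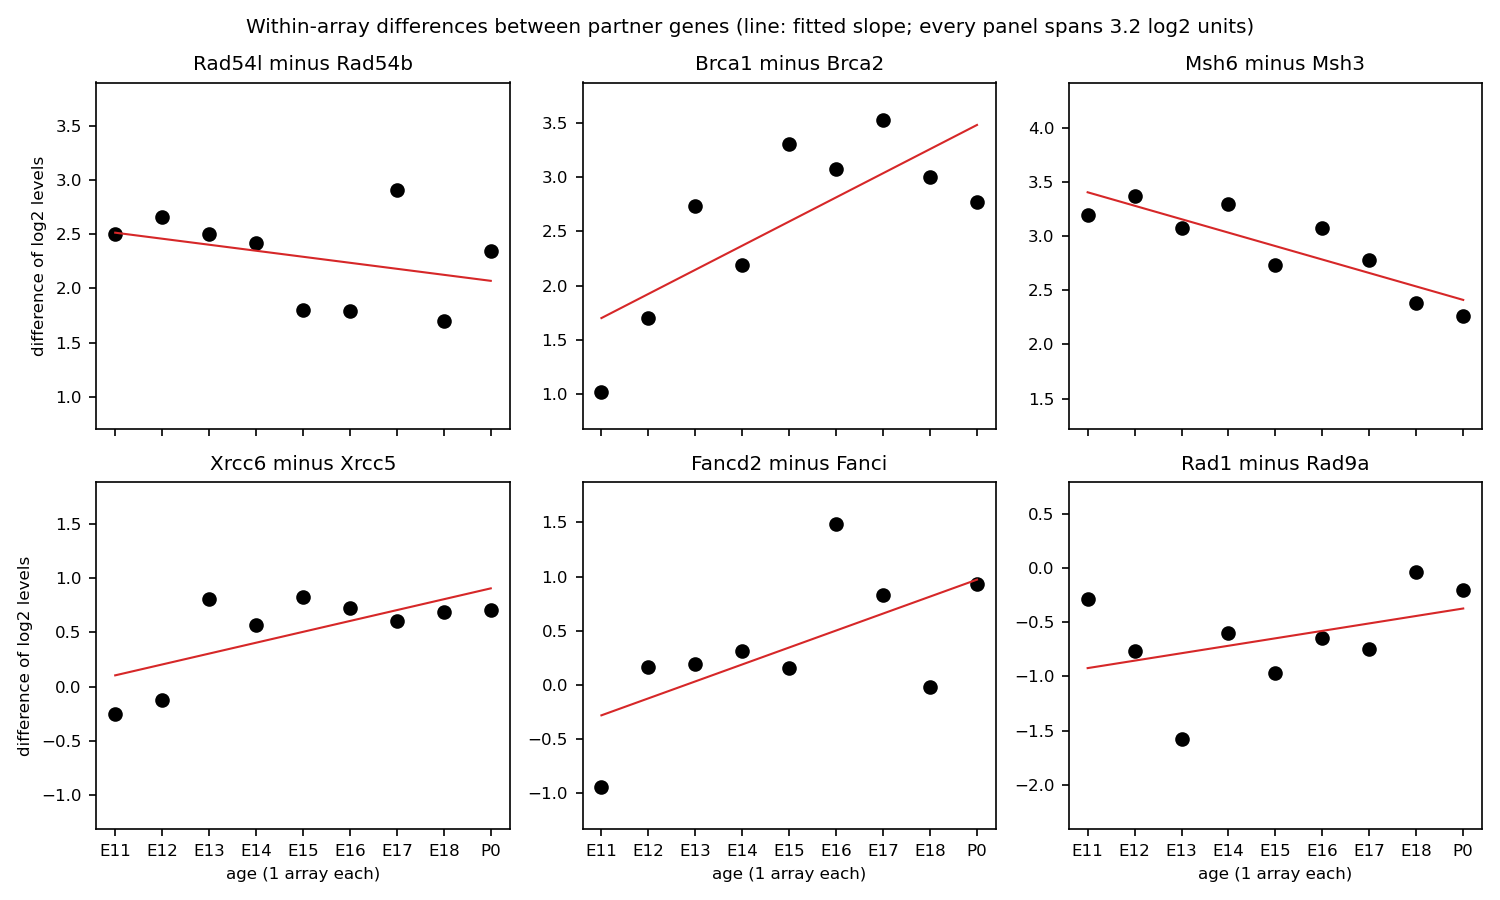
Difference of the log2 levels of 6 partner pairs, first minus second gene, on each of the 9 arrays from E11 to P0, with the fitted line. Every panel spans the same range of log2 units. Msh6 minus Msh3 declines to 2.27 at P0 against 3.19 at E11, and Brca1 minus Brca2 stands at 2.77 at P0 against 1.02 at E11.

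Repair genes with other names gave a wider view of the same routes. Of 100 tested, 54 fell, 5 rose and 41 did not pass, with a median slope of -0.092, against 0.0020 over all genes. The shares over all genes were 21.9% falling and 25.2% rising. In homologous recombination 13 of 18 fell, led by the nucleases Exo1 (-0.58 ± 0.044), Eme1 (-0.50 ± 0.079) and Dna2 (-0.42 ± 0.039) on the readings as they stand. Eme1 read under 5 from E15 on and Exo1 from E17 on, so their slopes rest in part on levels that are only bounded. The scaffold Slx4, in that list and in the Fanconi list, rose by 0.10 ± 0.038 per day (adjusted p = 0.0456) at readings of at most 5.15. Of 6 Fanconi partners 3 fell, the deubiquitinase Usp1 (-0.27 ± 0.018), the Brca2 partner Palb2 (-0.27 ± 0.070) and the conjugating enzyme Ube2t (-0.22 ± 0.035). Palb2, also counted in the recombination list, stood at 5 or more at E11 and E12 alone, so the filter favoured a falling call for it. The checkpoint list had the lowest median slope, -0.26, and 12 of its 14 genes fell. Its leaders were Clspn (-0.45 ± 0.030), which carries the signal of the kinase Atr, and the effector kinases Chek1 (-0.44 ± 0.027) and Chek2 (-0.39 ± 0.042).

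In mismatch repair 5 of 6 fell, beside 21.9% of all genes. Among them were Exo1, the replicative ligase Lig1 (-0.37 ± 0.020) and the MutL homologue Pms1 (-0.21 ± 0.045). Pcna (-0.18 ± 0.018) also fell and is among the cycling cell markers above, and Exo1 and Lig1 are counted in other repair lists too. End joining had 4 of 6, with the polymerase Poll (-0.20 ± 0.047), the kinase Prkdc (-0.18 ± 0.036) and Rif1 (-0.18 ± 0.028), which restrains resection. Poll read under 5 at E16, E17 and P0. Of the 12 cohesin genes 8 fell, most steeply sororin, Cdca5 (-0.43 ± 0.026), then the acetyltransferase Esco2 (-0.35 ± 0.056) and Pds5a (-0.15 ± 0.021). Base excision and single-strand break repair had 8 falling genes of 14, led by Lig1 and the glycosylases Neil3 (-0.30 ± 0.044) and Ung (-0.21 ± 0.047), while the glycosylase Neil1 rose by 0.15 ± 0.028 (adjusted p = 0.00167).

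Most genes of nucleotide excision repair and damage tolerance did not pass in either direction. Of all 10864 genes tested, 5739 did not pass, 21.9% fell and 25.2% rose. In nucleotide excision repair 2 of 17 fell, Ddb1 (-0.10 ± 0.022) and the TFIIH subunit Gtf2h4 (-0.092 ± 0.026), the lesion sensor Ddb2 rose by 0.065 ± 0.021 (adjusted p = 0.0283), and 14 did not pass (median slope -0.027). In damage tolerance the polymerase Polk (-0.12 ± 0.039) and the ligase Hltf (-0.11 ± 0.020) fell, the catalytic subunit of polymerase zeta Rev3l rose by 0.11 ± 0.032 (adjusted p = 0.0177) and the conjugating enzyme Ube2b, the partner of Rad18, by 0.092 ± 0.018 (adjusted p = 0.00196). The other 7 of its 11 genes did not pass, and its median slope was -0.011.

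**Figure D4:**
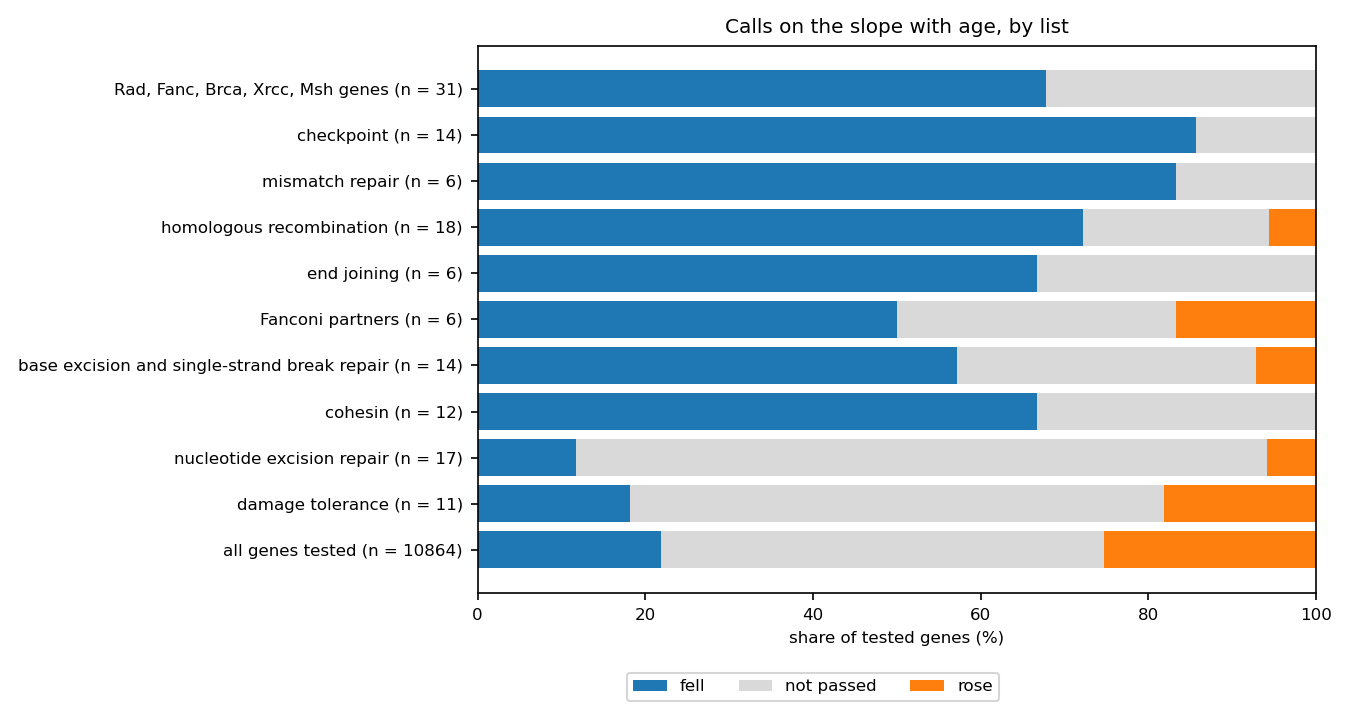
Share of tested genes that fell, did not pass or rose with age, in percent, for the 31 repair genes, for 9 lists of repair genes with other names and for all 10864 genes tested. Falling genes make up 12 of 14 in the checkpoint list and 2 of 17 in nucleotide excision repair, beside 21.9% of all genes.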

How the data were processed

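Total RNA from 9 olfactory bulbs was amplified in 2 rounds, biotin-labelled and hybridized to Affymetrix mouse arrays, per the labels. The deposited log2 values per probe set were made by the authors with GCRMA, per the submitters' processing notes. The GCRMA version is not given in the sources used here. That the scale is log2 follows from the range of the values. Probe sets with exactly 1 symbol in the platform annotation that read 5 or more on at least 2 arrays were kept, and for each gene the one of highest mean (10864 genes). The number of arrays limits the precision.

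Each gene was fitted against age, P0 being day 19, with limma 3.58.1 in R 4.3.3 (eBayes with a trend, two-sided, Benjamini-Hochberg, threshold 0.05), with 7 residual degrees of freedom. Errors are moderated standard errors. Folds set P0 against E11 with values under 5 set to 5. Within-array differences of partner genes were tested by exact permutation. Sex was read from Xist and Y-linked genes. The procedure was tested on simulated data. Some genes are not reported here. The members and lists were chosen with earlier results of these data known. In each route the 3 steepest falls, and all members that did not pass or whose probe sets disagreed in sign, are given in full.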

Additional observations from a re-analysis of the deposited data

How the results depend on the processing

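Of the 21 falling members, 14 kept the call in all 22 settings tried for each slope, 18 kept it when each array was left out in turn, and 18 in an exact rank test. The number falling ran between 15 (E13 to P0) and 27 (each array centred on its median), and between 19 and 22 with 1 array left out. Array medians were 4.08 at E11 and 4.20 at P0, so centring lowered the slopes of all genes alike. That of Brca1 moved from -0.059 to -0.077 and that of Xrcc4 from 0.086 to 0.068. Of all genes, 11.2% fell over E13 to P0, and the share after centring is not given here. The number rising was 0, but 1 after quantile normalization (Xrcc4) and 1 when a term for age squared was added. With an array left out it was 0 to 1. Curved courses numbered 2, but 3 with readings under 5 set to 5 or with P0 at day 20, 1 with the filter at level 6, and 0 with no filter, with sex in the fit or over E13 to P0 (0 to 2 with an array left out). Partner pairs that passed numbered 1, but 3 with readings under 5 set to 5 and 0 over E13 to P0 (0 to 3 with an array left out). Those 3 include Rad54l minus Rad54b, where the setting raised readings of Rad54b alone. Over E13 to P0 the slope of Xrcc3 turned to 0.045 and that of Xrcc6 minus Xrcc5 to -0.0100. The causes were not tested. Either scaling moved array medians by at most 0.0877 log2 units. No paired analysis was possible because each age had a single array. Ages rest on 1 animal each, and readings near 5 bound a level rather than measure it.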

Other observations

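A pair of probe sets carries the symbols of both Fsbp and Rad54b and was left out of the comparisons. One read 8.49, 7.98, 8.08, 7.60, 7.55, 7.49, 7.43, 7.21 and 7.39 log2 units from E11 to P0, highest at E11 like the single-symbol probe set of Rad54b but with a smaller span. The other read between 2.76 and 2.93 on all 9 arrays, below the filter level. Among the 31 members, 11 had further probe sets past the filter, 17 in all. Of these, 14 had a negative slope, and 2, of Rad23b and Rad21, had a slope opposite in sign to that of the brightest probe set.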
